A study of Mus musculus with 4 samples.

Results

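The 9 genes described here, Lrat, Rdh10, Dhrs3, Aldh1a1, Aldh1a2, Aldh1a3, Crabp1, Crabp2 and Cyp26b1, encode proteins that store, make, bind and break down retinoids. They were taken by name from a table of 30268 genes. All 9 had a row of their own, and 0 of the 1122 rows with joined gene names contained any of them. Retinol taken up by a cell is either esterified for storage or oxidised to retinaldehyde, which is then oxidised irreversibly to retinoic acid. Retinoic acid binds nuclear receptors, and its reach is limited by enzymes that degrade it in nearby cells. The epicardium, the outer layer of the heart, is known as a source of retinoic acid in the embryo, and retinyl ester storage is best known in stellate cells of the liver.

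Hearts of mouse embryos were profiled by Drop-seq, in which droplets pair cells with barcoded beads, and which counts unique molecular identifiers (UMIs) near the 3′ end of transcripts. Embryos named Lats1/2 CKO here (conditional knockout) were Wt1 CreERT2/+, Rosa26mTmG/+ and also Lats1/2 F/F, and control embryos were Wt1 CreERT2/+ and Rosa26mTmG/+ without it, so the Cre and reporter alleles were shared by both. Each genotype had 1 library per stage, E13.5 and E14.5 (E, embryonic day). Lats1 and Lats2 are kinases of the Hippo pathway that restrain the coactivators YAP and TAZ. The CreERT2 recombinase acts after tamoxifen in cells in which Wt1 is active, and Rosa26mTmG switches to a membrane EGFP after recombination. The sources used here do not give the dosing, the number of embryos per library or the deleted exons.

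After filtering there were 5907 cells in Lats1/2 CKO and 4471 in control at E13.5, and 5590 in Lats1/2 CKO and 5503 in control at E14.5. The median was 2015, 1589, 1034 and 955 UMIs per cell in that order, so the E14.5 libraries were shallower. Libraries shared 14 cell barcodes. Clusters built without the retinoid genes were named from marker lists. Epicardial-like cells showed 11 of 11 markers and were led by Upk3b and Msln. There were 223 of them in Lats1/2 CKO and 114 in control at E13.5, and 216 in Lats1/2 CKO and 92 in control at E14.5. Fibroblast-like cells, led by Tcf21, Lsp1 and Spon2, numbered 480 in Lats1/2 CKO and 330 in control at E13.5, and 381 in Lats1/2 CKO and 467 in control at E14.5. They came from 2 clusters, of which 1 lay mostly at E13.5 and 1 mostly at E14.5. Mural-like, endothelial-like, endocardial-like, cardiomyocyte-like and macrophage-like cells were also compared. So were 2 groups that keep the name of a leading gene because their leading genes went against a cell type name. These were the Sox9 mesenchyme, with 8 of 8 valve mesenchyme markers but more fibroblast than valve markers among its top 10 genes, and the Wnt4 cluster, with 6 of 7 endocardial markers but 0 of them in its top 10.

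Lats2 in epicardial-like cells was 31.5 CPM (UMIs scaled to a common total of the class) in Lats1/2 CKO and 66.6 in control at E13.5, and 48.4 in Lats1/2 CKO and 83.4 in control at E14.5. This log2 difference of -0.93 did not pass (edgeR quasi-likelihood test, adjusted p = 0.648), and Drop-seq tags can lie outside the deleted exons. Lats1 did not pass either (log2 -0.83, adjusted p = 0.785). Egfp, the mark of reporter recombination, was 621 CPM in Lats1/2 CKO and 88.0 CPM in control at E13.5, and 589 CPM in Lats1/2 CKO and 38.9 in control at E14.5, and it rose (log2 3.19, SE 0.31, adjusted p = 0.00775). The Cre transcript Creert2, whose allele both genotypes carried, was 89.3 CPM in Lats1/2 CKO and 39.98 CPM in control at E13.5, and 58.1 CPM in Lats1/2 CKO and 5.56 CPM in control at E14.5, and did not pass (log2 1.61, edgeR adjusted p = 0.532).

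The 9 genes lay in different cell classes. Epicardial-like cells held most transcripts of Aldh1a2, fibroblast-like cells of Lats1/2 CKO held most Lrat, and the Wnt4 cluster held most Cyp26b1. By the ratio of UMIs in whole libraries, the widest genotype difference among the 9 genes was in Lrat, which had 136 UMIs in the whole Lats1/2 CKO library and 0 in the whole control library at E13.5, and 93 in Lats1/2 CKO and 2 in control at E14.5. In no class did any of the 9 genes pass the additive edgeR test, which kept 1 residual degree of freedom. The members gave 23 tests over the 9 classes, of which 4 had an unadjusted p under 0.05 (Lrat and Aldh1a2 in fibroblast-like cells, Aldh1a1 in the Sox9 mesenchyme and Dhrs3 in mural-like cells), against 4.87% of 79134 tests over all genes. The pool of epicardial-like and fibroblast-like cells, which repeats the cells of these classes, gave 6 more tests, of which 2 (Lrat and Aldh1a2) had such a p. The members were chosen with earlier results of these data known, and the classes share libraries. Lrat entered these fits only through its Lats1/2 CKO counts. The counts of member tests are thus no independent comparison with the share over all genes. Other tools called Lrat, as given with its values. The background of passing genes is given with each class; it was 0.0373% of 8053 in endothelial-like cells, where no member was tested, 0.0404% of 9903 in endocardial-like cells and 0 in cardiomyocyte-like and macrophage-like cells.

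**Figure D1:**
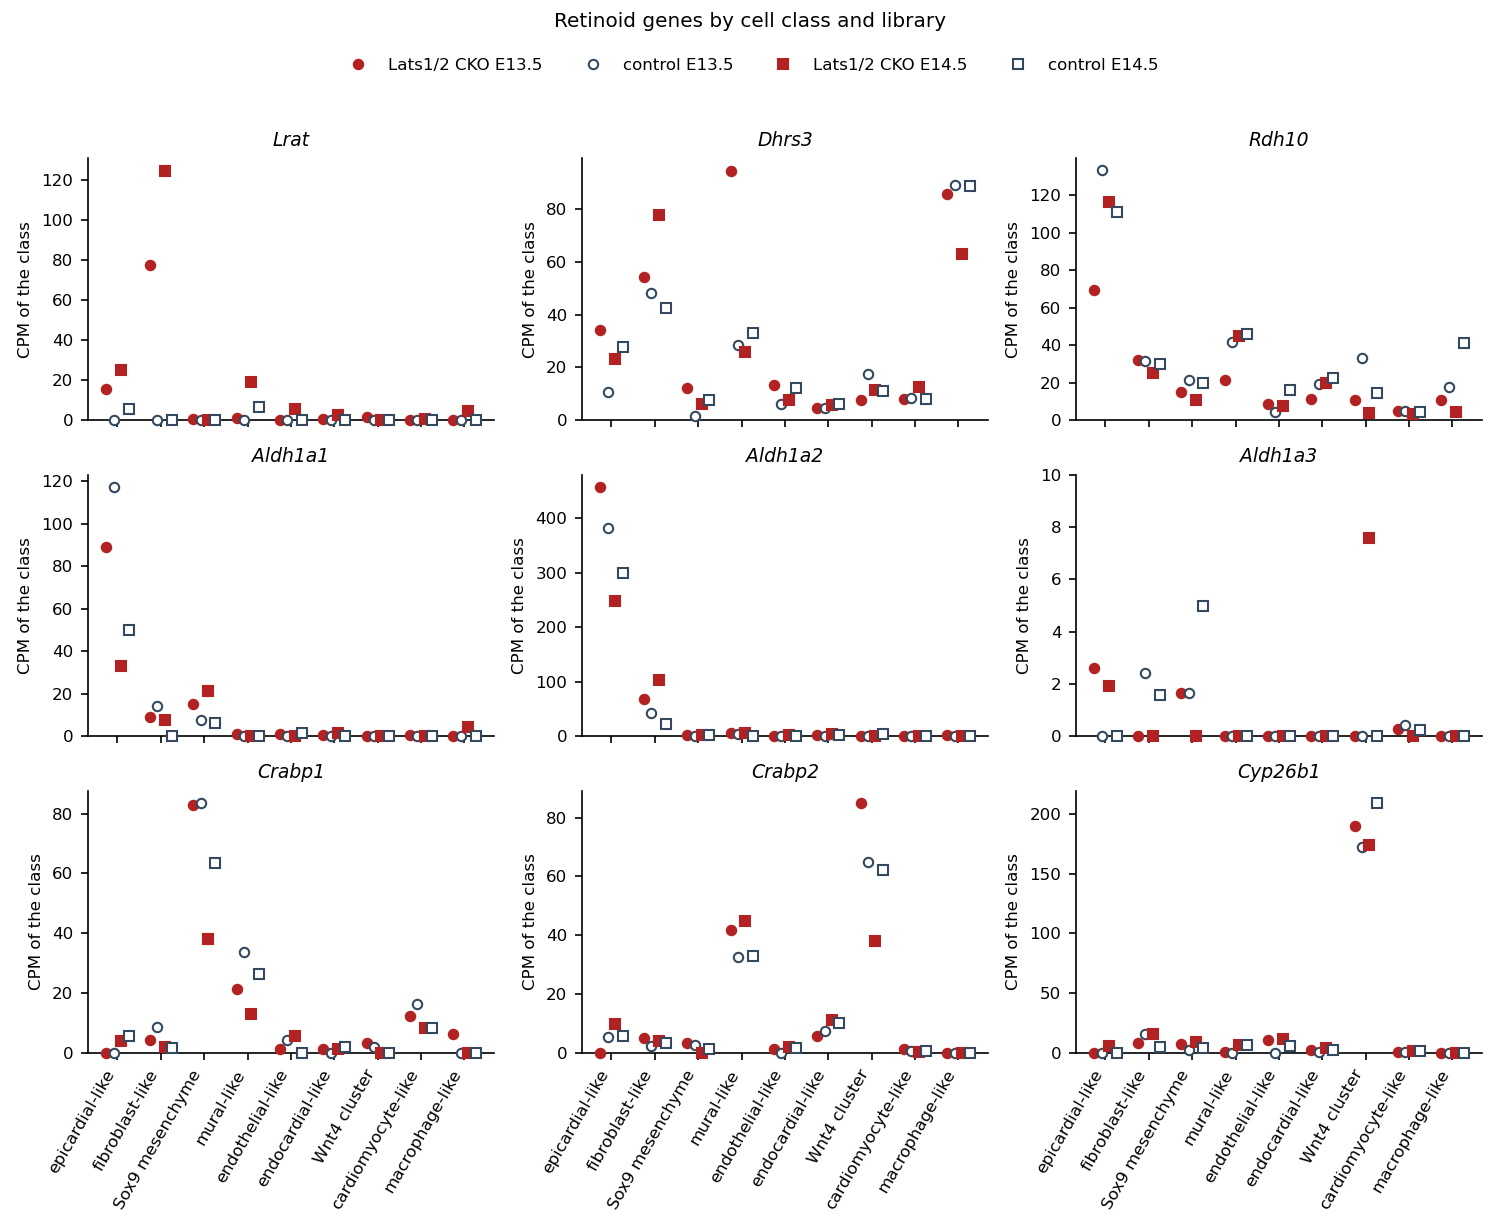
Level of each of the 9 genes in CPM (vertical axis, linear) in 9 cell classes (horizontal axis), with 1 point per library. Filled red points are Lats1/2 CKO and open dark points are control, with circles for E13.5 and squares for E14.5. Lrat points stand above 0 mainly in Lats1/2 CKO fibroblast-like cells, Aldh1a2 in epicardial-like cells and Cyp26b1 in the Wnt4 cluster.

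Lrat (ENSMUSG00000028003, chr3:82892579-82903973, minus strand, mm10) encodes lecithin retinol acyltransferase, which esterifies retinol for storage. Its promoter is shown because Lrat had the widest genotype ratio of the 9 genes. The 300 bases from 250 before to 50 after the start (RefSeq, GRCm38.p6, chr3:82903925-82904224, minus strand) hold 1 copy of GGAATG, searched on both strands, which lies 208 bases before the start on the reverse strand and is in capitals as CATTCC. This is the core of the motif bound by TEAD factors, the DNA-binding partners of YAP and TAZ.

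Lrat: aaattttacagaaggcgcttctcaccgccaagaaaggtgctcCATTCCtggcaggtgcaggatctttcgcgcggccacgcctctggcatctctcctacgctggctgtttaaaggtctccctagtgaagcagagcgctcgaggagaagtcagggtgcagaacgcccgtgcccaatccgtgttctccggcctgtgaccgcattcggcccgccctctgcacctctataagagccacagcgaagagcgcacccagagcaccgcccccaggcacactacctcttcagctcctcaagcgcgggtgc

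GGAATG was present in 14.6% of 27025 promoters of the same length, so its presence is common. No copy of the retinoic acid receptor core motif (searched on both strands as AGGTCA, then as the form GGGTCA, then as the form AGTTCA and then as the form GGTTCA) was found in this window, against 43.4% of all promoters.

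In fibroblast-like cells Lrat had 109 UMIs in Lats1/2 CKO and 0 in control at E13.5, which is 77.7 CPM (95% Poisson interval 63.8 to 93.7) against 0. At E14.5 it had 64 UMIs in Lats1/2 CKO and 0 in control, which is 125 CPM (96.1 to 159) against 0. Both Lats1/2 CKO libraries were above both control libraries. With 3 counts as the floor, a count of 0 allowed up to 3.62 CPM in control at E13.5 and 4.72 CPM at E14.5, so Lrat was at least 21.5-fold higher in Lats1/2 CKO at E13.5 and at least 26.4-fold higher at E14.5 with the Lats1/2 CKO counts taken as measured. With the counting error of both libraries, the lower bound of the ratio was 4.10 (E13.5) and 4.38 (E14.5) on the log2 scale. These intervals and floors cover counting error only. The additive edgeR fit gave a log2 difference of 9.40 (SE 0.72) with an unadjusted p of 4.3e-05 and an adjusted p of 0.0779, which missed the threshold of 0.05; the fitted size depends on the prior count and is no bound. In that fit 0.0108% of 9235 genes passed. The passing gene was Rps13-ps1, a pseudogene of a ribosomal protein gene, with 544 UMIs in Lats1/2 CKO and 1 in control at E13.5, and 259 UMIs in Lats1/2 CKO and 1 in control at E14.5 (log2 8.205, SE 0.35, edgeR adjusted p = 0.00336). Rps13-ps1 was named after its values were seen, and reads may be shared with near-identical copies. It had a log2 difference between 5.38 (macrophage-like) and 8.205 (fibroblast-like) in the 9 classes and passed in 7 of them, with cardiomyocyte-like (7.30) and macrophage-like cells as the exceptions, so a near on-or-off difference between the genotypes was also present in classes in which Lrat had at most 3 UMIs. Its part in the Lrat difference was not tested. The adjusted p was 0.0313 with edgeR's newer quasi-likelihood form, in which 0.0975% of genes passed, whereas Lrat did not pass with DESeq2, in which 0.0555% passed. The adjusted p ranged between 7.89e-27 and 1 over the alternatives.

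The Lrat UMIs were spread over many cells. In Lats1/2 CKO 67 of 480 fibroblast-like cells (13.96%) had at least 1 Lrat UMI at E13.5, against 0 of 330 in control. At E14.5 the count was 48 of 381 (12.6%) in Lats1/2 CKO and 0 of 467 in control. Most of them, 41 cells at E13.5 and 35 at E14.5, held a single UMI, and no cell held more than 5. With every cell thinned to 500 UMIs, the share in Lats1/2 CKO at E13.5 was 2.29% (exact binomial interval 1.15 to 4.06). At E14.5 it was 6.30% (4.08 to 9.23). The control shares after thinning were 0, with upper limits of 1.11% and 0.787%. Of the Lrat UMIs of the Lats1/2 CKO library, fibroblast-like cells held 80.1% in the E13.5 library and 68.8% in the E14.5 library. In cardiomyocyte-like cells, which should lack the gene, Lrat had 0.145 CPM in Lats1/2 CKO and 0 in control at E13.5, and 0.410 CPM in Lats1/2 CKO and 0 in control at E14.5.

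Epicardial-like cells had 12 Lrat UMIs in Lats1/2 CKO and 0 in control at E13.5, or 15.8 CPM against 0, which is at least 1.97-fold higher with the 12 UMIs taken as measured and has a lower counting bound of 0.45 on the log2 scale. At E14.5 they had 13 UMIs in Lats1/2 CKO and 1 in control, or 25.2 against 5.56 CPM, with a log2 ratio of 1.65 and a counting interval of -0.56 to 7.59 that includes no difference. In the Lats1/2 CKO libraries the fibroblast-like levels (77.7 and 125 CPM) lay above the epicardial-like levels (15.8 and 25.2 CPM), and the mural-like levels (0.929 and 19.3 CPM) overlapped the epicardial-like ones. Mural-like cells had 1 Lrat UMI in Lats1/2 CKO and 0 in control at E13.5 and 3 in Lats1/2 CKO and 1 in control at E14.5, and no other class compared had more than 3 in a library. Among the cells not compared, haemoglobin-rich cells had 4 in Lats1/2 CKO and 0 in control at E13.5, and the unnamed cluster had 6 in Lats1/2 CKO and 0 in control at E13.5 and 5 in Lats1/2 CKO and 0 in control at E14.5. Lrat was not among the genes tested in epicardial-like cells alone. In the pool of epicardial-like and fibroblast-like cells it had 121 UMIs in Lats1/2 CKO and 0 in control at E13.5, and 77 in Lats1/2 CKO and 1 in control at E14.5. The pooled log2 difference was 6.77 (SE 0.63, edgeR adjusted p = 0.0544), where 0.0275% of 10925 genes passed, and the adjusted p was 0.0233 with the newer quasi-likelihood form, in which 0.0458% of genes passed, and 0.0171 with DESeq2, in which 0.0513% passed. The difference in genotype effect between epicardial-like and fibroblast-like cells was -5.94 (SE 2.53) and did not pass (edgeR adjusted p = 0.470).

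**Figure D2:**
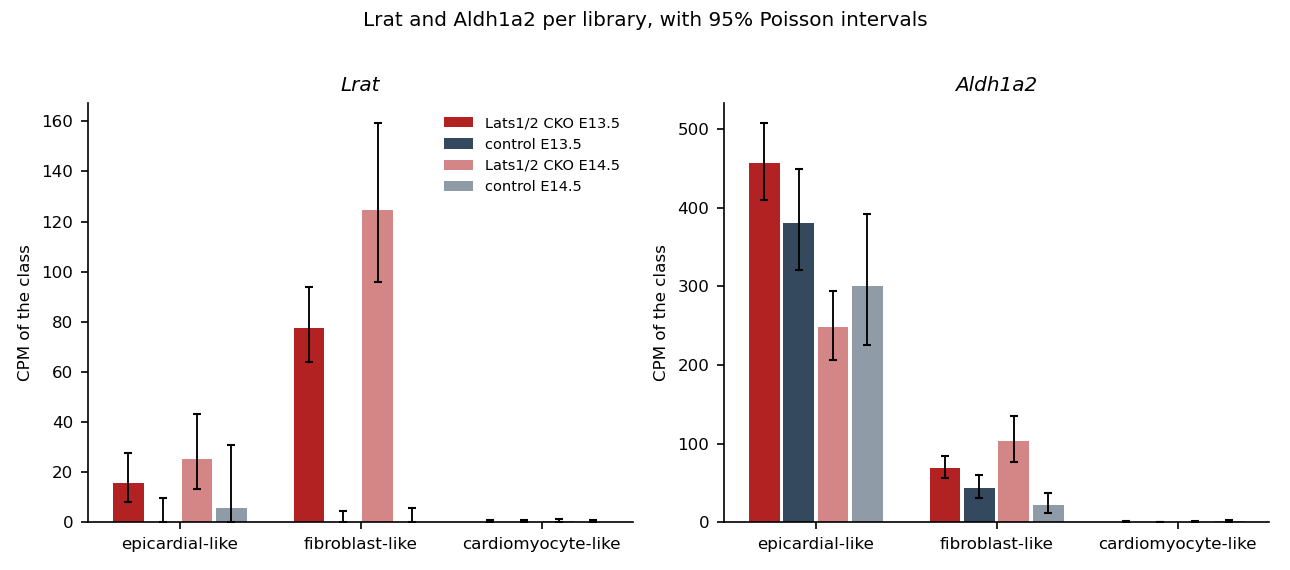
CPM of Lrat (left) and Aldh1a2 (right) in epicardial-like, fibroblast-like and cardiomyocyte-like cells, with 1 bar per library and 95% Poisson intervals. Red bars are Lats1/2 CKO and dark bars control, with E13.5 in full and E14.5 in pale colour. In fibroblast-like cells Lrat is 77.7 and 125 CPM in Lats1/2 CKO and 0 in both controls, while Aldh1a2 in epicardial-like cells is high in all 4 libraries.

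Lats1/2 CKO cells with and without Lrat were set side by side to see what else they held. At E13.5 Dpp4, a surface peptidase, or Mfap5, a microfibril protein, was detected in 71.6% of fibroblast-like cells with an Lrat UMI and in 22.5% of those without. At E14.5 the shares were 39.6% and 23.4%. Dpp4 and Mfap5 were named after their values were seen. Cells with Lrat were deeper, with a median of 3366 against 2201 UMIs at E13.5 and 1481 against 970 at E14.5, and the part of depth in these shares was not tested. Tcf21, a fibroblast transcription factor, was detected in 86.6% of cells with Lrat against 67.8% of those without at E13.5 and in 43.8% against 36.6% at E14.5. Dhrs3 was detected in 34.3% against 9.20% at E13.5 and in 14.6% against 7.51% at E14.5. Aldh1a2 was detected in 22.4% against 14.04% at E13.5 and in 14.6% against 7.51% at E14.5. The same comparison over all genes is not given here, so these shares do not show what is particular to cells with Lrat.

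The fibroblast-like class held few transcripts of the mesothelial markers summed here. The summed level of 7 mesothelial markers (Upk3b, Upk1b, Krt19, Krt7, Msln, Lrrn4 and Muc16) in fibroblast-like cells was 33.5 CPM in Lats1/2 CKO and 82.04 CPM in control at E13.5, and 72.1 in Lats1/2 CKO and 15.7 in control at E14.5. In each library at most 6 of the 7 were detected and Muc16 was at 0, against sums between 4681 and 4993 CPM in epicardial-like cells. The E14.5 sum was thus higher in Lats1/2 CKO and the E13.5 sum lower, and its part in the Lrat and Aldh1a2 differences was not tested. The sum leaves out Krt8, Krt18, Wt1 and Tbx18 of the epicardial list, whose levels in fibroblast-like cells are not given here. Of these, Wt1 had enough UMIs in fibroblast-like cells to be tested and did not pass (log2 0.56, edgeR adjusted p = 0.964). Of the hepatocyte list, Alb, Afp and Apoa1 were at 0 in fibroblast-like cells of all 4 libraries, and its other genes are not given here. Genes of hepatic stellate cells (Reln, Lhx2, Ngfr, Hgf and Des) summed to 77.0 CPM in Lats1/2 CKO and 65.1 in control at E13.5, and to 68.2 in Lats1/2 CKO and 84.9 in control at E14.5.

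Egfp was used to ask whether the recombined cells carried the Lrat transcripts. Egfp was detected in 72 of 480 Lats1/2 CKO fibroblast-like cells at E13.5 and in 43 of 381 at E14.5, against 20 of 330 and 12 of 467 in control. Lrat was 114 CPM (74.1 to 169) in cells with Egfp and 70.9 CPM (56.6 to 87.8) in cells without it at E13.5, and 87.6 CPM (35.2 to 180) with Egfp and 132 CPM (99.7 to 170) without it at E14.5. The intervals overlapped at both stages and the order of the sets changed between them. A cell without an Egfp UMI is not shown to be unrecombined at this depth.

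Rdh10 (ENSMUSG00000025921, chr1:16105774-16133734, plus strand, mm10) encodes the retinol dehydrogenase that makes retinaldehyde in the embryo. Epicardial-like cells had 53 UMIs in Lats1/2 CKO and 50 in control at E13.5, or 69.6 against 133 CPM, and 60 UMIs in Lats1/2 CKO and 20 in control at E14.5, or 116 against 111 CPM. The E13.5 ratio lay below 1 by its counting interval (log2 -0.94, -1.52 to -0.35) and the E14.5 ratio did not (log2 0.04, -0.69 to 0.87). Both genotypes overlapped over the stages, and the additive difference did not pass (log2 -0.48, edgeR adjusted p = 0.785). Epicardial-like cells were highest, with a mean of 108 ± 27.0 CPM over the 4 libraries (SD), above mural-like cells at 38.6 ± 11.6 and fibroblast-like cells at 29.7 ± 3.03, whose ranges overlapped. In mural-like cells Rdh10 was 21.4 CPM in Lats1/2 CKO and 42.0 in control at E13.5, and 44.9 CPM in Lats1/2 CKO and 46.1 in control at E14.5.

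In 3 further classes both Lats1/2 CKO libraries lay below both controls for Rdh10, on few UMIs in the Wnt4 cluster and in macrophage-like cells. The share of all genes with such an order of libraries is not given here. The Wnt4 cluster had 7 UMIs in Lats1/2 CKO and 19 in control at E13.5, or 10.8 against 33.4 CPM (log2 -1.57, counting interval -3.12 to -0.31), and 1 UMI in Lats1/2 CKO and 4 in control at E14.5. The Sox9 mesenchyme had 14.8 CPM in Lats1/2 CKO and 21.6 in control at E13.5, and 10.6 CPM in Lats1/2 CKO and 19.9 in control at E14.5 (log2 -0.67, edgeR adjusted p = 0.981). Macrophage-like cells had 5 UMIs in Lats1/2 CKO and 3 in control at E13.5, or 10.5 against 17.9 CPM, and 1 UMI in Lats1/2 CKO and 6 in control at E14.5, or 4.49 against 41.1 CPM. Rdh10 was below the filter of the edgeR fit in the Wnt4 cluster and in macrophage-like cells.

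Dhrs3 (ENSMUSG00000066026, chr4:144892827-144928209, plus strand, mm10) encodes a reductase that turns retinaldehyde back into retinol. It was spread over several classes. Macrophage-like cells had a mean of 81.8 ± 12.7 CPM over the 4 libraries, fibroblast-like cells 55.7 ± 15.6, mural-like cells 45.4 ± 33.0 and epicardial-like cells 24.0 ± 9.93 (SD), and the ranges of neighbours in this order overlapped. In fibroblast-like cells it had 76 UMIs in Lats1/2 CKO and 40 in control at E13.5, or 54.2 against 48.3 CPM, and 40 UMIs in Lats1/2 CKO and 27 in control at E14.5, or 78.0 against 42.5 CPM. Both Lats1/2 CKO libraries were above both controls, but the difference did not pass (log2 0.52, edgeR adjusted p = 0.962). The order was the opposite in macrophage-like cells. There the Lats1/2 CKO libraries had 62.9 and 85.9 CPM and the controls 89.0 and 89.3 CPM. This difference did not pass either (log2 -0.25, edgeR adjusted p = 0.983).

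In mural-like cells Dhrs3 had 102 UMIs in Lats1/2 CKO and 21 in control at E13.5, or 94.7 against 28.4 CPM (log2 1.71, counting interval 1.05 to 2.49). At E14.5 it had 4 UMIs in Lats1/2 CKO and 5 in control, or 25.7 against 32.9 CPM (log2 -0.33, -2.69 to 1.86). A higher level was thus seen at E13.5 alone, on counts too low at E14.5 to compare the stages, and the additive difference did not pass (log2 1.30, SE 0.52, edgeR adjusted p = 0.999, where 0.134% of 7465 genes passed). The Sox9 mesenchyme had 30 Dhrs3 UMIs in Lats1/2 CKO and 3 in control at E13.5 (12.3 against 1.66 CPM), and 4 in Lats1/2 CKO and 6 in control at E14.5. Epicardial-like cells had 26 UMIs in Lats1/2 CKO and 4 in control at E13.5 (34.2 against 10.7 CPM), and 12 in Lats1/2 CKO and 5 in control at E14.5 (23.2 against 27.8 CPM).

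Aldh1a2 (ENSMUSG00000013584, chr9:71215789-71296243, plus strand, mm10) encodes the retinaldehyde dehydrogenase known as the main maker of retinoic acid in the embryonic epicardium. Its promoter is shown because its transcripts lay mostly in epicardial-like cells in all 4 libraries. The window (RefSeq, GRCm38.p6, chr9:71215539-71215838, plus strand) is 78.0% G and C and holds no GGAATG, no receptor core motif and no TATAAA, so no base is in capitals.

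Aldh1a2: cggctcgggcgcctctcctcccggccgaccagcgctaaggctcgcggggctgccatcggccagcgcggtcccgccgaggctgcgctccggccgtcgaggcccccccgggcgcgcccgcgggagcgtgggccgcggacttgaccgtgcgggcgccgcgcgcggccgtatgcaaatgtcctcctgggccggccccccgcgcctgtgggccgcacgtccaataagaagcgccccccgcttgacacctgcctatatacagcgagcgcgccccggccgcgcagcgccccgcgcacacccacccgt

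Epicardial-like cells had 348 Aldh1a2 UMIs in Lats1/2 CKO and 143 in control at E13.5, or 457 CPM (410 to 508) against 381 CPM (321 to 449). At E14.5 they had 128 in Lats1/2 CKO and 54 in control, or 248 CPM (207 to 295) against 300.2 CPM (226 to 392). The genotypes overlapped, the order turned between stages, and the difference did not pass (log2 0.03, SE 0.23, edgeR adjusted p = 0.986, where 0.04% of 7508 genes passed). Epicardial-like cells held 73.3% of the Aldh1a2 UMIs of the library in Lats1/2 CKO and 76.9% in control at E13.5, and 63.7% in Lats1/2 CKO and 65.1% in control at E14.5, although the class was 3.78% of cells in Lats1/2 CKO and 2.55% in control at E13.5 and 3.86% in Lats1/2 CKO and 1.67% in control at E14.5. Aldh1a2 was detected in 51.1% of epicardial-like cells in Lats1/2 CKO and 48.2% in control at E13.5, and in 32.9% in Lats1/2 CKO and in 35.9% in control at E14.5. After thinning to 500 UMIs these shares were 19.3% in Lats1/2 CKO and 11.4% in control at E13.5, and 8.33% in Lats1/2 CKO and 17.4% in control at E14.5. Cardiomyocyte-like cells stood at 0.580 CPM in Lats1/2 CKO and 0 in control at E13.5, and at 0.820 CPM in Lats1/2 CKO and at 1.19 in control at E14.5.

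In fibroblast-like cells Aldh1a2 had 97 UMIs in Lats1/2 CKO and 36 in control at E13.5, or 69.1 CPM (56.1 to 84.3) against 43.4 CPM (30.4 to 60.1). At E14.5 it had 53 in Lats1/2 CKO and 14 in control, or 103 CPM (77.4 to 135) against 22.0 CPM (12.0 to 36.9). Both Lats1/2 CKO libraries were above both controls, 1.58-fold at E13.5 (log2 0.66, 0.11 to 1.27) and 4.57-fold at E14.5 (log2 2.19, 1.36 to 3.19). The additive difference was 1.36 (SE 0.42, unadjusted p = 0.0174) and did not pass (edgeR adjusted p = 0.893). The cells with an Aldh1a2 UMI made up 15.2% in Lats1/2 CKO and 6.97% in control at E13.5, and 8.40% in Lats1/2 CKO and 2.78% in control at E14.5.

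The genotype difference of Aldh1a2 was lower in epicardial-like than in fibroblast-like cells by 1.19 on the log2 scale (difference -1.19, SE 0.32, edgeR adjusted p = 0.0444). In that test 0.606% of 9732 genes passed. The comparison of these 2 classes was added after the values were seen. It passed in only 4 of 9 alternatives, with an edgeR adjusted p of 0.627 under the newer quasi-likelihood form. The difference rested mainly on E14.5, where the difference of ratios was -2.48, against -0.40 at E13.5. The SE and adjusted p used a spread shared by all genes, so they do not hold this change between stages. Against all other named cells together the difference was -1.04 and did not pass (edgeR adjusted p = 0.111, where 0.504% of 16257 genes passed).

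In Lats1/2 CKO epicardial-like cells Aldh1a2 was 533 CPM (466 to 607) in cells with Egfp and 362 CPM (301 to 432) in cells without it at E13.5, and 243 CPM (193 to 301) with Egfp and 258 CPM (189 to 344) without it at E14.5. The sets differed by their counting intervals at E13.5 only. In Lats1/2 CKO fibroblast-like cells Aldh1a2 was 82.4 CPM (48.8 to 130) with Egfp and 66.7 CPM (52.8 to 83.1) without at E13.5. At E14.5 it was 225 CPM (133 to 356) with Egfp and 80.8 CPM (56.3 to 112) without, and the intervals did not overlap. The share of all genes with intervals apart between such sets is not given here, nor is the depth of the sets.

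Aldh1a1 (ENSMUSG00000053279, chr19:20492715-20643465, plus strand, mm10), another retinaldehyde dehydrogenase, was also highest in epicardial-like cells. It had 68 UMIs in Lats1/2 CKO and 44 in control at E13.5, or 89.3 against 117 CPM, and 17 UMIs in Lats1/2 CKO and 9 in control at E14.5, or 32.9 against 50.03 CPM. Lats1/2 CKO was lower at each stage, but the stages overlapped and the difference did not pass (log2 -0.45, edgeR adjusted p = 0.812). Epicardial-like cells with an Aldh1a1 UMI also held Aldh1a2 in 73.3% of cells in Lats1/2 CKO and 57.7% in control at E13.5, and in 53.3% in Lats1/2 CKO and in 66.7% in control at E14.5. Cells without Aldh1a1 held it in 45.5% in Lats1/2 CKO and 45.5% in control at E13.5, and in 31.3% in Lats1/2 CKO and in 33.7% in control at E14.5, and they were shallower (in Lats1/2 CKO at E13.5 a median of 5553 UMIs with Aldh1a1 and 2124 without).

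The Sox9 mesenchyme was the next class for Aldh1a1, with 37 UMIs in Lats1/2 CKO and 14 in control at E13.5, or 15.2 against 7.74 CPM, and 14 UMIs in Lats1/2 CKO and 5 in control at E14.5, or 21.2 against 6.22 CPM. Both Lats1/2 CKO libraries were above both controls (log2 1.28, SE 0.48, unadjusted p = 0.0375), without passing (edgeR adjusted p = 0.981, where 0.00892% of 11211 genes passed). Aldh1a3 (ENSMUSG00000015134, chr7:66390890-66427517, minus strand, mm10), the remaining dehydrogenase of this family, was near its floor everywhere, with at most 4 UMIs in any named class and library and a highest level of 7.58 CPM. Differences between genotypes in Aldh1a3 were not detectable at this depth.

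**Figure D3:**
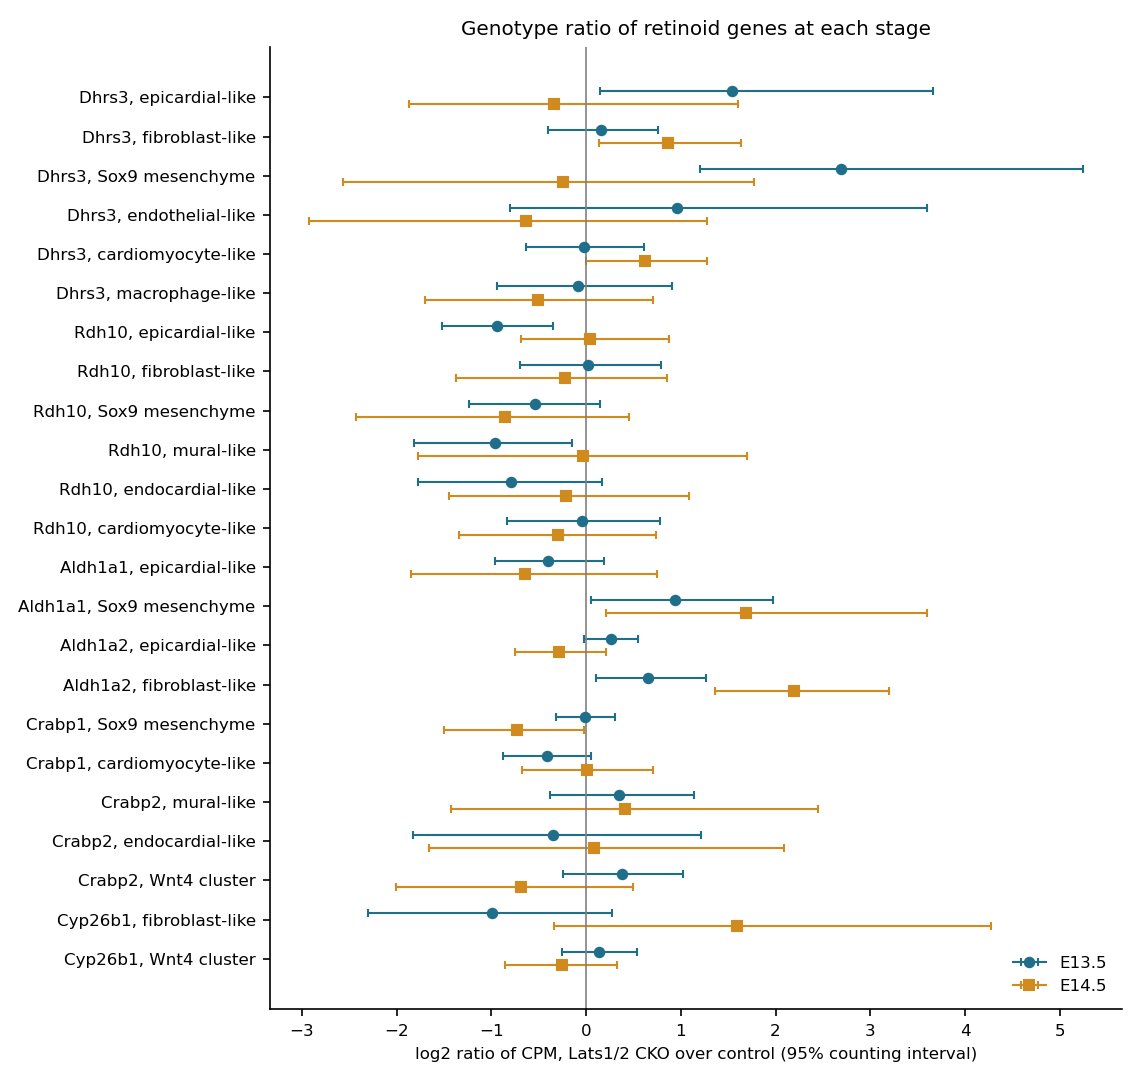
Ratio of CPM in Lats1/2 CKO over control (horizontal axis, log2) for 23 pairs of a gene and a class that had at least 10 UMIs at each stage and a control count above 0, with 95% counting intervals. Blue circles are E13.5 and ochre squares E14.5, and the grey line marks no difference. Aldh1a2 in fibroblast-like cells lies right of the line at both stages, while Rdh10 in epicardial-like cells lies left of it at E13.5 only. Lrat has no control count in fibroblast-like cells and is not drawn there.

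Crabp1 and Crabp2 encode proteins that bind retinoic acid inside cells. Crabp1 (ENSMUSG00000032291, chr9:54764748-54773110, plus strand, mm10) was highest in the Sox9 mesenchyme, with 202 UMIs in Lats1/2 CKO and 151 in control at E13.5, or 82.9 against 83.5 CPM, and 25 UMIs in Lats1/2 CKO and 51 in control at E14.5, or 37.9 against 63.5 CPM. The E13.5 values differed by less than counting error (log2 -0.01, -0.32 to 0.30) and the E14.5 ratio lay below 1 by its counting interval (log2 -0.73, -1.50 to -0.03), while the additive difference did not pass (log2 -0.28, edgeR adjusted p = 0.982). Mural-like cells followed at 23.6 ± 8.82 CPM and cardiomyocyte-like cells at 11.3 ± 3.75 CPM (SD over 4 libraries), with overlapping ranges. In mural-like cells Crabp1 was 21.4 CPM in Lats1/2 CKO and 33.8 in control at E13.5. At E14.5 it was 12.8 CPM in Lats1/2 CKO (2 UMIs) and 26.3 in control (4 UMIs). Both Lats1/2 CKO libraries were thus below both controls, without passing (log2 -0.72, edgeR adjusted p = 0.999). In epicardial-like cells Crabp1 did not exceed 5.56 CPM in any library.

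Crabp2 (ENSMUSG00000004885, chr3:87948666-87953376, plus strand, mm10) had another distribution, led by the Wnt4 cluster at 62.5 ± 19.3 CPM and mural-like cells at 38.0 ± 6.28 CPM (SD over 4 libraries), whose ranges overlapped. The Wnt4 cluster had 55 UMIs in Lats1/2 CKO and 37 in control at E13.5, or 84.8 against 65.0 CPM, and 10 UMIs in Lats1/2 CKO and 17 in control at E14.5, or 37.9 against 62.3 CPM. The stages went opposite ways and the additive difference was 0.03 (edgeR adjusted p = 0.999). Mural-like cells had 41.8 CPM in Lats1/2 CKO and 32.5 in control at E13.5, and 44.9 CPM in Lats1/2 CKO and 32.9 in control at E14.5 (log2 0.41, edgeR adjusted p = 0.999).

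Cyp26b1 (ENSMUSG00000063415, chr6:84571414-84593908, minus strand, mm10) encodes a cytochrome P450 that degrades retinoic acid. Its promoter is shown because its transcripts lay in a class apart from those of the synthesis genes. The window (RefSeq, GRCm38.p6, chr6:84593761-84594060, minus strand) holds 1 TATAAA, in capitals, a motif found in 14.2% of all promoters, and no GGAATG or receptor core motif.

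Cyp26b1: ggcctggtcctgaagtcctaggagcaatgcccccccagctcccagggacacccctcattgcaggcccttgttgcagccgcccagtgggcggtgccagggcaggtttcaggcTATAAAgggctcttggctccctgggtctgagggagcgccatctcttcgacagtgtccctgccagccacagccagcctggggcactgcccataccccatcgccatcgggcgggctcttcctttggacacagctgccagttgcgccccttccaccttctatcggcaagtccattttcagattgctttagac

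The Wnt4 cluster, whose leading genes were Stmn2, Cyp26b1, Aqp1 and Wnt4, had 123 Cyp26b1 UMIs in Lats1/2 CKO and 98 in control at E13.5, or 190 against 172 CPM. At E14.5 it had 46 in Lats1/2 CKO and 57 in control, or 174 against 209 CPM. The mean over the 4 libraries was 186 ± 17.1 CPM (SD), and the genotypes overlapped (log2 -0.01, SE 0.27, edgeR adjusted p = 0.999, where 0.886% of 7449 genes passed). The p-values of this fit used a spread shared by all genes, so its share of passing genes is not comparable with other classes. The cluster held 71.1% of the Cyp26b1 UMIs of the library in Lats1/2 CKO and 83.1% in control at E13.5, and 57.5% in Lats1/2 CKO and 72.2% in control at E14.5. After thinning to 500 UMIs Cyp26b1 was detected in 9.36% of its cells in Lats1/2 CKO and 7.69% in control at E13.5, and in 6.45% in Lats1/2 CKO and in 5.88% in control at E14.5. The next class, fibroblast-like cells, had 7.84 CPM in Lats1/2 CKO and 15.7 in control at E13.5, and 15.6 CPM in Lats1/2 CKO and 4.72 in control at E14.5. In 2 classes with few UMIs both Lats1/2 CKO libraries lay above both controls, an order whose share over all genes is not given here. The Sox9 mesenchyme had 18 UMIs in Lats1/2 CKO and 4 in control at E13.5, or 7.39 against 2.21 CPM (log2 1.61, counting interval 0.14 to 3.76), and 6 in Lats1/2 CKO and 3 in control at E14.5, or 9.10 against 3.73 CPM. Endothelial-like cells had 9 UMIs in Lats1/2 CKO and 0 in control at E13.5, and 6 in Lats1/2 CKO and 3 in control at E14.5, or 11.4 against 5.29 CPM. Cyp26b1 was below the filter of the edgeR fit in both. Epicardial-like cells had 3 Cyp26b1 UMIs in Lats1/2 CKO at E14.5 and 0 in the other libraries.

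**Figure D4:**
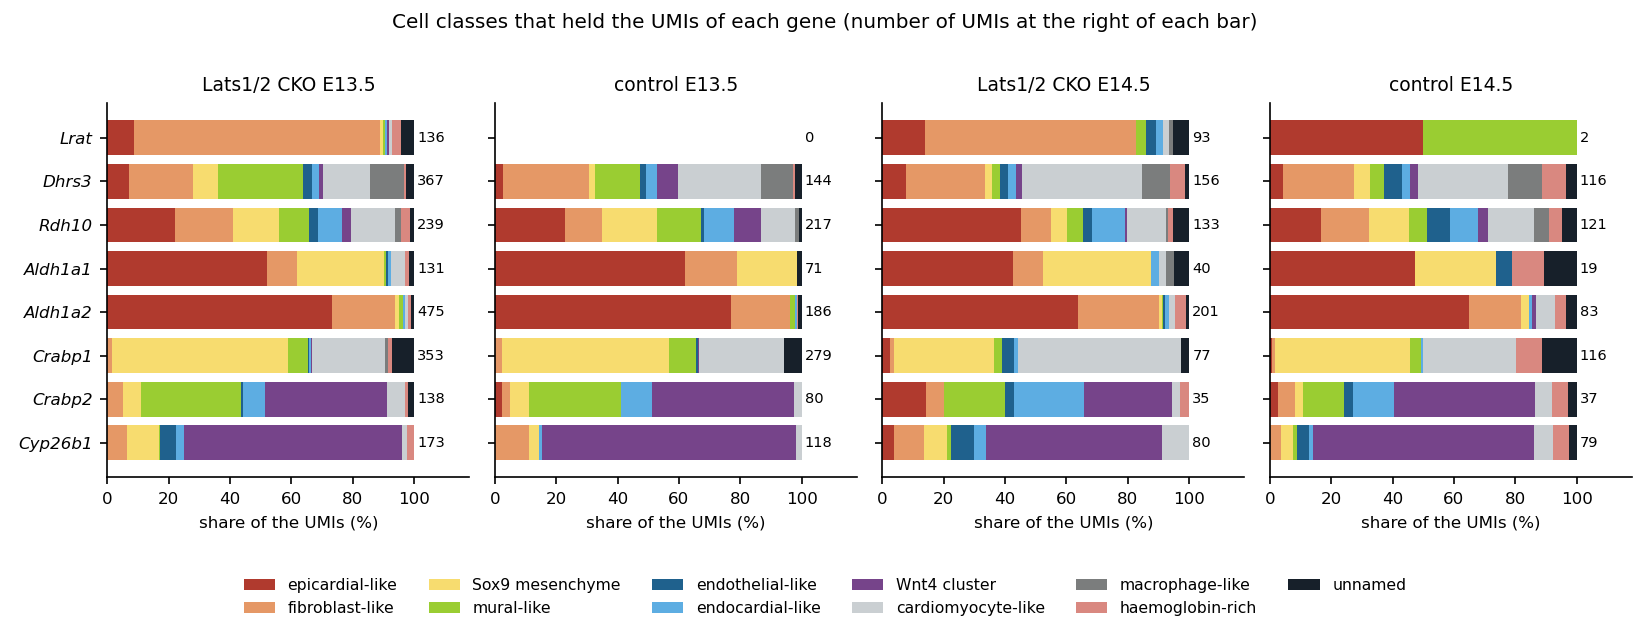
Share of the UMIs of each gene in a library (horizontal axis, percent) that lay in each cell class (colours), with 1 panel per library, Lats1/2 CKO before control at each stage. Aldh1a2 bars are mostly epicardial-like in all 4 panels, Cyp26b1 bars mostly the Wnt4 cluster, and the Lrat bar of Lats1/2 CKO at E13.5 is 80.1% fibroblast-like. Lrat had 0 UMIs in control at E13.5 and 2 in control at E14.5.

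Promoters were available for 6 of the 9 genes. GGAATG was found once each in those of Lrat, Aldh1a1 and Crabp1 and not in those of Dhrs3, Aldh1a2 and Cyp26b1. The receptor core motif was found in 0 of the 6, and a direct repeat of that motif spaced by 5 bases, the form best known to bind retinoic acid receptors, in 0 of the 6 and in 0.0962% of all promoters. These matches are letters in a short window, not bound sites.

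Read by counting error alone, fibroblast-like cells had 2 of 7 members with enough UMIs (at least 10) higher in Lats1/2 CKO at E13.5, Lrat and Aldh1a2, against 10.7% of 12512 genes. At E14.5 the count was 3 of 5, with Dhrs3 added, against 7.09% of 10556 genes, and 0 members were lower at either stage, against 10.2% of genes at E13.5 and 9.2% at E14.5. Epicardial-like cells had 2 of 5 higher at E13.5, Lrat and Dhrs3, against 8.85% of 10750 genes, and 1 lower, Rdh10, against 8.33%. At E14.5 0 of 5 were higher, against 5.78% of 8973 genes, and 0 were lower, against 6.44%. Lrat met the limit of 10 UMIs in both classes only through its Lats1/2 CKO counts, so it could not have been counted as lower. The members were also chosen with earlier results of these data known. Their shares, here and in the other classes, are therefore no test against the share over all genes.

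Other classes also had members whose ratio lay off 1 by this measure. In the Sox9 mesenchyme 3 of 6 were higher at E13.5, Dhrs3, Aldh1a1 and Cyp26b1, against 12.9% of 14212 genes, and 0 were lower, against 11.2%. At E14.5 1 of 4 was higher, Aldh1a1, against 3.98% of 11544 genes, and 1 lower, Crabp1, against 8.28%. In mural-like cells 1 of 4 was higher at E13.5, Dhrs3, against 9.09% of 11949 genes, and 1 lower, Rdh10, against 8.73%, while at E14.5 0 of 2 were higher or lower, against 3.78% and 4.75% of 5708 genes. In the Wnt4 cluster 0 of 4 were higher at E13.5, against 7.6% of 10824 genes, and 1 was lower, Rdh10, against 7.75%, while at E14.5 0 of 2 were higher or lower, against 4.04% and 6.36% of 8114 genes. Endothelial-like, endocardial-like, cardiomyocyte-like and macrophage-like cells together had 0 of 9 higher or lower at E13.5, against 11.7% and 10.7% of 47872 ratios, and 0 of 9 at E14.5, against 6.09% and 11.1% of 42728 ratios. The classes share their libraries, so their counts are not independent.

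Other genes of the pathway were read from 5 lists of 58 genes, of which 51 were in the table. In 181 tests over the 9 classes 0 rose and 0 fell by edgeR at an adjusted p of 0.05, 6 had an unadjusted p under 0.05, or 3.31% against 4.87% over all genes, and DESeq2 and edgeR's newer form also called 0. Among genes of transport and uptake, Lrp2, an endocytic receptor, was 64.4 CPM in Lats1/2 CKO and 74.6 in control epicardial-like cells at E13.5, and 69.7 CPM in Lats1/2 CKO and 128 in control at E14.5, and it had 0 UMIs in fibroblast-like cells of all 4 libraries. Fabp5, a carrier of fatty acids and retinoic acid, was highest in endocardial-like cells, at 2205 CPM in Lats1/2 CKO and 1889 in control at E13.5 and 1880.3 CPM in Lats1/2 CKO and 1881 in control at E14.5. The plasma carrier Rbp4 did not exceed 13.3 CPM in any class.

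Of the retinol and retinal enzymes, Dhrs4 was highest in epicardial-like cells, at 133 CPM in Lats1/2 CKO and 139 in control at E13.5 and 180 CPM in Lats1/2 CKO and 167 in control at E14.5. Adh5 and Akr1b10 were highest in cardiomyocyte-like cells by the mean over the 4 libraries, Akr1b10 in each library and Adh5 in 3 of 4 (the Wnt4 cluster was higher in control at E13.5). In cardiomyocyte-like cells Adh5 was 233 CPM in Lats1/2 CKO and 218 in control at E13.5, and 161 CPM in Lats1/2 CKO and 165 in control at E14.5. Cyp26a1, the breakdown enzyme related to Cyp26b1, was highest in the Sox9 mesenchyme, at 26.7 CPM in Lats1/2 CKO and 27.1 in control at E13.5 and 34.9 CPM in Lats1/2 CKO and 17.4 in control at E14.5. Of the receptors, Rarg was also highest there, at 95.6 CPM in Lats1/2 CKO and 84.0 in control at E13.5 and 83.4 CPM in Lats1/2 CKO and 80.9 in control at E14.5. Rarres2, a gene named for its response to a retinoid, was 519 CPM in Lats1/2 CKO and 365 in control epicardial-like cells at E13.5, and 602 CPM in Lats1/2 CKO and 478 in control at E14.5. Lats1/2 CKO was above control at each stage, but the difference did not pass (log2 0.43, edgeR adjusted p = 0.700). Of the other genes with the highest levels in their lists, Ncoa3 was highest in macrophage-like cells and Nr2f2 in endocardial-like cells in each of the 4 libraries. Dhrs7 was highest in mural-like cells in 3 of 4 libraries, and the highest class of Nrip1, Ncor1 and Meis2 changed between libraries.

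Genes whose pattern was most like that of each member were ranked by Pearson correlation of log2(CPM + 10) over 36 points, 9 classes in each of 4 libraries, among 8485 genes. The points share libraries and depth, so r is a description. For Aldh1a2 they were Folr1 (r = 0.97), Cpz (0.97) and Apela (0.96), and for Aldh1a1 Efemp1 (0.92), Folr1 (0.91) and Egfl6 (0.90). For Cyp26b1 they were Nptx1 (0.95), Fzd10 (0.95) and Wnt9b (0.94). For Lrat the values were lower, with Myh1 at 0.82, Ephb2 at 0.72 and Pdlim2 at 0.69. Dhrs3 was nearest to Lsp1 (0.79), Ifi30 (0.76) and Itga4 (0.76), and Rdh10 to Wdr86 (0.85), Serping1 (0.84) and Fcor (0.83). Crabp1 was nearest to Prrx2 (0.86), Dpysl4 (0.85) and Enah (0.84), and Crabp2 to Gkn3 (0.88), Tmem158 (0.82) and Jag1 (0.82). With 1 CPM added in place of 10, between 0 and 2 of the 3 genes were shared for each member.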

How the data were processed

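The deposited file was 1 table of UMI counts that the authors made, with 30268 genes in 24849 cells and whole numbers throughout. Cell names gave genotype and stage, and so the 4 libraries. Lysis in droplets and Illumina Nextera XT are per the labels. STAR, Picard and mm10 are named in the submitters' processing notes; the sources used here give no versions. The series design text gives another day for the earlier stage than the labels, and the labels' E13.5 was used. Counting of a 3′ tag may miss transcripts whose end is poorly annotated.

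Cells with at least 500 UMIs, 300 genes and at most 20% mitochondrial UMIs were kept, which removed 16 cells from Lats1/2 CKO and 21 from control (E13.5), and 1804 and 1537 cells (E14.5), doublets included. Scrublet with 1 threshold for all libraries marked 8, 7, 7 and 2 cells; at under 0.5% of cells it did not separate doublets, so 2 other rules were tried. Clustering (scanpy 1.11.5, Python 3.11.15) used 3103 variable genes without the retinoid genes, 30 principal components, 15 neighbours and Leiden resolution 1.0. A cluster was named where at least 3 markers and 60% of a list stood at least 0.5 (log2) above the other cells of the same libraries (10 CPM added); the clusters had been seen when these thresholds were set, and names rebuilt this way may differ from the study's. Haemoglobin-rich cells (38 in control at E13.5) and 1 unnamed cluster were not compared.

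UMI counts were summed per class and library. CPM used the total of the class. Where both libraries of 1 genotype lay above both of the other, the share of all genes with that order is not given. Such an order is a description only. With 1 library per genotype and stage there is no test within a stage: ratios have exact conditional binomial intervals (0.5 count added to each side), levels exact Poisson and shares exact binomial intervals, all at 95%. The additive fit (edgeR 4.0.16 in R 4.3.3, original quasi-likelihood form, genotype and stage, TMM, filterByExpr, Benjamini-Hochberg at 0.05 over all genes tested) kept 1 residual degree of freedom, and SE is the absolute log2 difference over the square root of F. Nothing in the labels says how many embryos a library pooled. With no replicate of a genotype and stage, the residual degree of freedom of the additive fit reflects how far the genotype difference changed between the stages. The p-values thus hold no spread between replicate libraries of a condition. In the Wnt4 cluster and in the tests between classes, the edgeR p-values of the main form used a spread shared by all genes. The change of a single gene between stages does not enter those p-values. Differences between classes were tested as a class-by-genotype term with the library as block. In simulated counts 4-fold changes were recovered for 72% of genes in epicardial-like, 83% in fibroblast-like and 70.8% in pooled cells, and 2-fold changes for 5.21%, 16% and 6.38%. False calls numbered 0, 5 and 1 in that order. The simulation had 1 dispersion for all genes and no stage effect. Only genes expected above 5 UMIs in the smallest library were changed, so these shares do not hold for members on fewer UMIs. Alternatives were RLE size factors, no filter, DESeq2 1.42.0, no stage term, each stage alone, other resolutions, all variable genes, cells of at least 1000 UMIs, other doublet rules and edgeR's newer form (the last and 1 doublet rule were added after the data were seen).

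The members and all gene lists were chosen with earlier results of these data known. The text names all 9 members, the 4 genes with the highest CPM of each list of other retinoid genes and those called, the 3 genes most like each member of at least 50 CPM, and checks of the labels; Rps13-ps1, Dpp4 and Mfap5 were named after their values were seen. Promoters are from RefSeq (GRCm38.p6), positions from GENCODE on mm10. Values of 1 gene of the lists are not reported here.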

Additional observations from a re-analysis of the deposited data

Results flagged for a closer look

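The genotype difference of Aldh1a2 differed between epicardial-like and fibroblast-like cells by -1.19 on the log2 scale in a test of that difference (edgeR quasi-likelihood test, adjusted p = 0.0444). The comparison was added after the values were seen. It passed in 4 of 9 alternatives, with an edgeR adjusted p of up to 0.627. Its p-value does not hold the change of this difference between stages. The epicardial-like difference was 0.03 and the fibroblast-like difference 1.36. The mesothelial marker sum in fibroblast-like cells, 72.1 CPM in Lats1/2 CKO and 15.7 CPM in control at E14.5, moved in the same direction there, and the opposite way at E13.5 (33.5 and 82.04 CPM), and its part in the result was not tested.

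Lrat appeared in cells outside the comparisons. The cluster left without a name held 5 Lrat UMIs in Lats1/2 CKO and 0 in control at E14.5, or 19.5 CPM against 0, and 6 and 0 UMIs at E13.5, or 12.1 CPM against 0. As a plain ratio, not on the log2 scale, the lower counting bound was 1.70 at E14.5. At E13.5 it was 0.662, so that interval includes no difference. Haemoglobin-rich cells, of which control had 38 at E13.5, held 4 Lrat UMIs in Lats1/2 CKO and 0 in control at E13.5, or 12.7 CPM against 0. The lower counting bound of that plain ratio was 0.112, so its interval also includes no difference. These cells held 0 Lrat UMIs in both genotypes at E14.5. The unnamed cluster had the highest mean doublet score of the clusters, 0.207, and the part of doublets was not tested.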

How the results depend on the processing

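Of the log2 differences recomputed under the alternatives, 364 kept direction and side of the threshold and 24 changed sign. Lrat in fibroblast-like cells passed in 6 of 11 alternatives: with no filter (9.40), no stage term (9.43), edgeR's newer form (9.40), resolution 2.0 (9.50), all variable genes (9.44) and the top 5% of doublet scores removed (9.38). In the pooled cells it passed in 4 of 11: with no filter (6.80), the newer form (6.77), DESeq2 (7.04) and own doublet thresholds (6.79). The count of members called was accordingly 1 under those settings, and 2 in fibroblast-like cells with no filter, where Aldh1a2 passed too (1.39). The Aldh1a2 difference between epicardial-like and fibroblast-like cells missed the threshold under the newer form (-1.19), resolution 2.0 (-1.30), all variable genes (-1.14), at least 1000 UMIs (-1.05) and own doublet thresholds (-1.18), leaving 0 members called there, and the stages alone gave -0.40 (E13.5) and -2.48 (E14.5). Aldh1a2 in epicardial-like cells turned to -0.0055 without the top 5% of doublet scores and to -0.28 at E14.5. With a single stage, the sign also turned for Aldh1a1 pooled (-0.32), Rdh10 pooled (-0.48), Rdh10 fibroblast-like (0.021), Cyp26b1 in the Wnt4 cluster (0.14), fibroblast-like (-0.99) and pooled cells (-1.08) and Dhrs3 cardiomyocyte-like (-0.023) at E13.5, and for Crabp1 cardiomyocyte-like (0.010), Crabp2 in the Wnt4 cluster (-0.69), Dhrs3 epicardial-like (-0.34) and mural-like (-0.33) and Rdh10 epicardial-like (0.040) at E14.5. Other sign changes were Crabp2 in the Wnt4 cluster with DESeq2 (-0.12), Cyp26b1 there with own doublet thresholds (0.0090), in fibroblast-like cells with the newer form (-0.038) and resolution 0.5 (-0.015) and pooled (-0.094 and -0.084), Dhrs3 macrophage-like (0.077), Rdh10 fibroblast-like (0.0062) and Lrat in epicardial-like against other named cells (2.92) without the top 5% of doublet scores, and Rdh10 pooled at resolution 2.0 (-0.030). Over all genes the count called ran between 1 and 146 in fibroblast-like cells, 1 and 84 in epicardial-like cells, 1 and 249 in pooled cells and 2 and 69 in the Wnt4 cluster. Causes were not tested. No paired analysis was possible because the labels give no replicate numbers beyond the stage, by which the additive fit already pairs the libraries. Leaving out a library leaves no residual degree of freedom, so each stage alone gives a ratio with no test. Epicardial-like and macrophage-like cells of at least 1000 UMIs were not fitted alone (under 50 cells in a library); the fit between epicardial-like and fibroblast-like cells at that depth was run, with 46 epicardial-like cells in control at E14.5; the Wnt4 cluster was not separate at resolution 0.5. Shares of cells with a UMI are bounded by depth at E14.5.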
